A study of Mus musculus with 9 samples.

Results

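AP-1, BATF and IRF4 factors are the transcription factors that act together at many genes switched on by the T cell receptor (TCR). The members described here are the 10 genes Fos, Fosb, Fosl2, Jun, Junb, Jund, Batf, Atf3, Irf4 and Irf8, chosen by name from the 41978 genes of the expression table. They were measured by bulk RNA-seq in 9 samples of semi-mature CD4 single-positive (SP4) thymocytes, sorted as live CD25- CD69+ CD24+ CD4+ CD8- cells. All mice carried Nur77-eGFP BAC Tg, a bacterial artificial chromosome in which GFP reports transcription of Nr4a1, the gene that encodes Nur77. The groups differ only in reporter level: GFPlo, GFPmed and GFPhi, the lowest, middle and highest slices of GFP, with 3 biological replicates each. No mice were treated, the labels give no age, and each group is a slice of one polyclonal population rather than a separate genotype. Whether samples with the same replicate number came from the same mouse is not stated, so p-values measure only the spread between these samples.

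AP-1 is a dimer of basic leucine zipper proteins. A FOS protein must pair with a JUN protein, whereas JUN proteins can also pair with each other. TCR and costimulatory signals induce and phosphorylate these proteins, and AP-1 then binds beside NFAT at cytokine genes. BATF is a FOS-like protein that pairs with JUN proteins, and the BATF-JUN dimer recruits IRF4 or IRF8 to composite sites. IRF4 itself is induced in proportion to TCR signal strength in mature T cells, and ATF3 is a stress-induced relative that binds ATF/CRE sites.

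The promoters of the 3 FOS genes and of Jun are shown because Fosl2 rose and Jun fell between the sorted groups. Promoter sequences from RefSeq (GRCm38.p6, 250 bases before to 50 after the start) were found for 10 of 10 members. A kappaB motif, the site bound by NF-kB, was found upstream of Fos, Fosb and Fosl2 and at no other member, and 8.46% of 32817 promoters of the same length hold one. In the lines below capitals mark the kappaB match, and in Fosl2 also a match to the IRF repeat, in which GAAA recurs after 2 bases. All are written 5′ to 3′ on the strand of the gene.
Fos, chr12:85473646-85473715, plus strand: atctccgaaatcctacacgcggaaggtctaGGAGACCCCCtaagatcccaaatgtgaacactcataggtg
Fosb, chr7:19310194-19310263, minus strand: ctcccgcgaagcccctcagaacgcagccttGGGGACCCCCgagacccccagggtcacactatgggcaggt
Fosl2, chr5:32136222-32136330, plus strand: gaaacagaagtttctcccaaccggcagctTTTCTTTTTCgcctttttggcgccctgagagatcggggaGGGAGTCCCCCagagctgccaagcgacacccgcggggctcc
Jun, chr4:95052223-95052322, minus strand, with no match: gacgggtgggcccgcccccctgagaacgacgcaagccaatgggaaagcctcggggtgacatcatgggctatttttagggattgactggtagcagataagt

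Both strands were searched for every motif. The AP-1 site TGANTCA, the CRE TGACGTCA, the NR4A monomer site AAAGGTCA and the CArG box of serum response factor were found in 0 of 10 members, against 7.81%, 1.79%, 1.51% and 1.63% of all promoters. The IRF repeat was found in Fosl2 alone among the members, against 3.43% of all promoters. In Fosl2 the capitals of the kappaB run cover 2 overlapping matches, 1 on each strand. A match says only that these letters occur in the window, and the lack of one says only that the exact pattern does not. Sites outside the window, or that differ from the pattern by a letter, were not searched for.

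The sort was checked first with Nr4a1 itself. Its level in TPM, a depth- and length-scaled transcript level deposited by the authors, was 213, 187 and 251 in GFPlo replicates 1, 2 and 3, then 366, 351 and 406 in GFPmed and 767, 917 and 836 in GFPhi. The 3 groups did not overlap and stood in the order of the reporter. Because GFP chose the cells, this order checks the labels and is not a result. Reads per sample, solved from the deposited values, ran from 7465552 to 14943774. Levels of all genes correlated at 0.897 to 0.936 within groups and at 0.876 to 0.938 between them (Pearson r of log2(TPM + 1)). The SP4 markers Cd4, Cd3d, Cd3e, Cd3g, Cd24a, Cd69, Ccr7, Lck, Zap70 and Themis were each above a mean TPM of 1, and their summed level ran from 5618 to 6729 TPM over the 9 samples. In bulk samples, fewer cells that express a gene and less RNA per cell cannot be told apart.

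**Figure D1:**
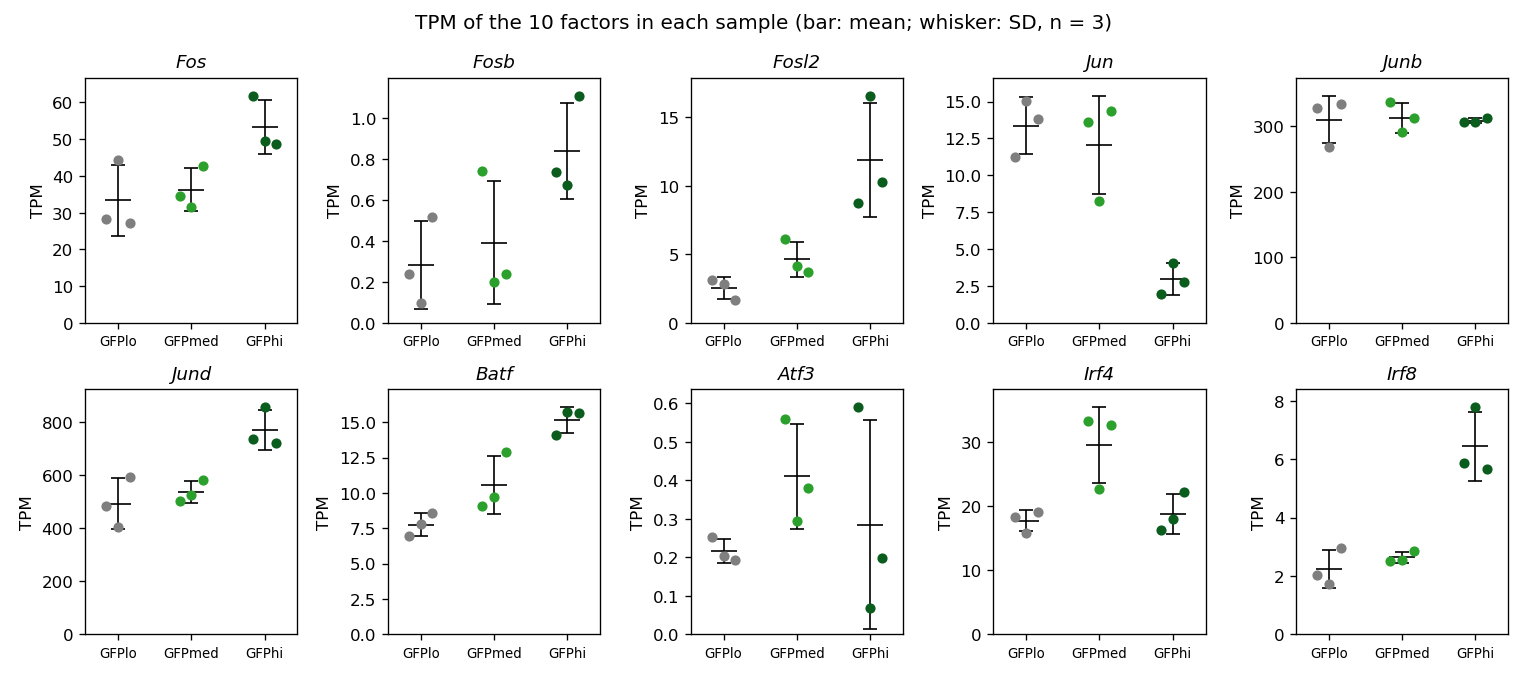
TPM of each member (vertical axes, linear, from 0) in the 3 GFPlo, 3 GFPmed and 3 GFPhi samples, with the mean as a bar and the SD as a whisker. Fosl2, Jund, Batf and Irf8 are highest and Jun is lowest in GFPhi, whereas Irf4 is highest in the 3 GFPmed samples, between 22.7 and 33.3 TPM.

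Across the reporter range the members did not move as one group. Between GFPhi and GFPlo, Fosl2, Irf8, Batf and Jund rose and Jun fell, whereas Fos, Junb and Irf4 did not pass the test. The test was limma on log2(TPM + 1) fitted to all 9 samples together. It took in 30693 genes, each of which reached 1 TPM in 3 or more samples, and p-values were adjusted over all of them by Benjamini-Hochberg. A gene was called at an adjusted p of at most 0.05. 8 of 10 members reached that TPM limit and were tested, and Fosb and Atf3 did not reach it. The TPM of Atf3 divides by a length 11.2 times its exonic length. Of these 8, 4 were higher in GFPhi, against 2.38% of all genes tested, and 1 was lower, against 1.51%. The members were chosen with earlier results of these data known, so shares over all genes, here and below, only give scale. The study's limit of a 1-unit log2 fold change in either direction was also applied, here to log2(TPM + 1) and not to the authors' own fold changes. With it Fosl2 and Irf8 were higher, against 1.26% of all genes, and Jun was lower, against 0.404%. These are not the authors' calls. The GFPhi and GFPlo samples did not overlap for 6 of the 8, against 18.2% of all genes. The members differ in depth: mean reads per sample ran from 6 for Fosb, 13.4 for Atf3 and 50.3 for Jun to 1731 for Jund.

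The FOS subunits were described first. Fosl2 (ENSMUSG00000029135.10, chr5:32135801-32157842, plus strand) encodes FRA-2, a FOS protein that lacks a strong activation domain. Its level was 3.16, 2.87 and 1.65 TPM in GFPlo, 6.09, 4.14 and 3.71 in GFPmed and 8.72, 16.6 and 10.3 in GFPhi. The groups did not overlap and increased in order, a pattern that 2 of 8 tested members showed (Fosl2 and Batf) against 1.67% of all genes. The mean was 4.63 times as high in GFPhi as in GFPlo. These levels rest on 45, 51 and 27 reads in GFPlo, 167, 70 and 53 in GFPmed and 200, 332 and 188 in GFPhi. The log2 fold change was 1.83 (SE 0.31, limma adjusted p = 0.0168, n = 3 per group), of which 0.67 (SE 0.31) lay between GFPlo and GFPmed and 1.16 (SE 0.31) between GFPmed and GFPhi. The call was lost without GFPlo replicate 2 (limma adjusted p = 0.0580), GFPlo replicate 3 (0.0609) or GFPhi replicate 3 (0.0601), and the log2 fold change stayed between 1.58 and 2.22 under all 19 alternatives run.

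Fos (ENSMUSG00000021250.13, chr12:85473890-85477273, plus strand) is the immediate early FOS gene. It was at 28.3, 44.4 and 27.3 TPM in GFPlo, 34.4, 31.6 and 42.8 in GFPmed and 61.8, 49.5 and 48.7 in GFPhi. The GFPhi samples were above every other sample, and GFPlo and GFPmed overlapped. From GFPlo to GFPhi the log2 fold change was 0.69 (SE 0.21) and did not pass the test (limma adjusted p = 0.152). Without GFPlo replicate 2, the highest of its group, it was 0.91 and passed narrowly (limma adjusted p = 0.0495).

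Fosb (ENSMUSG00000003545.3, chr7:19302696-19310051, minus strand) encodes another inducible FOS protein. It gave 2, 1 and 5 reads in GFPlo, 12, 2 and 2 in GFPmed and 10, 8 and 12 in GFPhi. Its TPM was 0.237, 0.0951 and 0.518 in GFPlo, 0.740, 0.200 and 0.237 in GFPmed and 0.737, 0.674 and 1.11 in GFPhi. GFPhi lay above GFPlo in all samples, at levels that only a few reads support. Reads of the 1530 olfactory and vomeronasal receptor genes, which T cells are not known to use, give a measure of stray signal, and 16.1% of them had a lower mean level per exonic length than Fosb.

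Among the JUN subunits the direction differed by gene. Jun (ENSMUSG00000052684.4, chr4:95049034-95052222, minus strand) encodes c-JUN, the strongest activator of the family. It was at 11.3, 15.0 and 13.8 TPM in GFPlo, 13.6, 8.28 and 14.4 in GFPmed and 1.94, 4.09 and 2.80 in GFPhi. GFPlo and GFPmed overlapped, and all GFPhi samples lay below both. These levels rest on 47, 78 and 66 reads in GFPlo, 109, 41 and 60 in GFPmed and 13, 24 and 15 in GFPhi. Jun fell by 1.89 on the log2 scale between GFPlo and GFPhi (SE 0.28, limma adjusted p = 0.0101, n = 3 per group). Nearly all of this lay in the upper step: Jun fell by 1.73 between GFPmed and GFPhi (SE 0.28, limma adjusted p = 0.0280), whereas the GFPmed to GFPlo difference was -0.16 (SE 0.28). Jun was thus the 1 member lower in GFPhi than in GFPmed, against 0.609% of all genes, or 0.15% with the fold limit, and 0 members were higher, against 0.899%. At an unadjusted p under 0.05, limma gave 7 of the 8 tested members in this comparison (5 higher, Jun and Irf4 lower), against 10.6% of all genes in either direction. The GFPhi to GFPlo call was lost without GFPlo replicate 2 (limma adjusted p = 0.0514), and the GFPhi to GFPmed call without GFPlo replicate 2 or 3, GFPmed replicate 1 or 3 or GFPhi replicate 1 or 3 (limma adjusted p = 0.0581 to 0.124). The antisense gene Junos shares 232 bases, or 7.28%, of the exonic length of Jun and gave 30 to 77 reads.

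Markers of immature thymocytes fell alongside Jun. Of the 7 CD8 lineage and double-positive genes, 6 were in the table and 5 were tested. Cd8a (log2 fold change -1.12), Cd8b1 (-0.79) and Dntt (-1.43) fell between GFPlo and GFPhi (limma adjusted p = 0.0158, 0.00646 and 0.00260). Their list summed to between 56.1 and 59.6 TPM in GFPlo, 48.3 and 51.5 in GFPmed and 26.7 and 33.5 in GFPhi, and no gene of it was at 0 in all samples. Their part in the fall of Jun was not tested.

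Jund (ENSMUSG00000071076.6, chr8:70698949-70700616, plus strand) is the JUN gene that is expressed without stimulation in most cells. It was at 482, 402 and 592 TPM in GFPlo, 503, 524 and 581 in GFPmed and 735, 856 and 720 in GFPhi. Every GFPhi sample was above every sample of the other groups, which overlapped each other. The log2 fold change was 0.66 (SE 0.14, limma adjusted p = 0.0461), a ratio of means of 1.57. This call was lost in 8 of the 9 fits that left out a sample, each except the one without GFPlo replicate 3 (limma adjusted p = 0.0224 to 0.132 over the 9). In addition, the antisense gene Gm11175 covers 877 bases, or 52.6%, of the exonic length of Jund, and its log2 fold change was 0.66 (SE 0.15, limma adjusted p = 0.0534). The library kit does not mark strand, so reads of the 2 genes cannot be told apart.

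Junb (ENSMUSG00000052837.7, chr8:84974484-84978718, minus strand) encodes a weaker activator that can oppose c-JUN. It was at 328, 268 and 334 TPM in GFPlo, 337, 291 and 312 in GFPmed and 306, 306 and 313 in GFPhi. The groups overlapped fully. The difference between GFPhi and GFPlo was -0.0015 on the log2 scale with an SE of 0.093, and its sign changed in 7 of 19 alternatives. Prdx2, on the opposite strand, shares 7.52% of the exonic length of Junb.

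Batf (ENSMUSG00000034266.6, chr12:85686669-85709087, plus strand) was at 6.93, 7.81 and 8.56 TPM in GFPlo, 9.08, 9.71 and 12.9 in GFPmed and 14.1, 15.7 and 15.6 in GFPhi. Like Fosl2, its 3 groups stood in order without overlap. Batf rose by 0.89 on the log2 scale between GFPlo and GFPhi (SE 0.16, limma adjusted p = 0.0249), with 0.39 (SE 0.16) in the lower step and 0.50 (SE 0.16) in the upper step. The mean in GFPhi was 1.95 times that in GFPlo. The call was lost in 7 of the 9 fits that left out a sample, each except those without GFPmed replicate 1 or GFPmed replicate 3 (limma adjusted p = 0.0243 to 0.0986).

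Atf3 (ENSMUSG00000026628.13, chr1:191170296-191218039, minus strand) was at 0.253, 0.203 and 0.194 TPM in GFPlo, 0.560, 0.293 and 0.379 in GFPmed and 0.590, 0.0676 and 0.197 in GFPhi. These levels rest on 8, 8 and 7 reads, 34, 11 and 12 reads, and 30, 3 and 8 reads. Both the highest and the lowest sample were in GFPhi, and no order among the 3 groups was detectable at this depth, though all GFPmed samples were above all GFPlo samples. Per exonic length, 61.4% of the receptor genes had a lower mean level.

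The IRF factors had different shapes across the sort. Irf8 (ENSMUSG00000041515.10, chr8:120736358-120756694, plus strand) is best known for its role in dendritic cells, macrophages and B cells. It was at 2.02, 1.72 and 2.96 TPM in GFPlo, 2.51, 2.55 and 2.85 in GFPmed and 5.87, 7.78 and 5.65 in GFPhi, from 34 to 184 reads per sample. GFPlo and GFPmed overlapped, and all GFPhi samples were above them. Irf8 rose by 1.21 on the log2 scale (SE 0.22, limma adjusted p = 0.0263), a ratio of means of 2.88, with 0.19 (SE 0.22) in the lower and 1.02 (SE 0.22, limma adjusted p = 0.0855) in the upper step. The call was lost in 8 of the 9 fits that left out a sample, each except the one without GFPlo replicate 3 (limma adjusted p = 0.0381 to 0.110).

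Genes of other cells that use Irf8 were also present. Of the 12 dendritic cell and macrophage markers, 8 were tested and 0 were called between GFPhi and GFPlo by limma (1 of them, Cd74, had an unadjusted p under 0.05 and was called by limma-voom), and their summed level was 65.1 to 86.3 TPM in GFPlo, 71.3 to 83.2 in GFPmed and 73.0 to 104 in GFPhi. In TPM the largest single part of that sum was Cd74, at means of 35.2, 44.0 and 54.8 in GFPlo, GFPmed and GFPhi. None of the 12 was at 0 in all samples. Group means were 0.103 to 0.392 TPM for Itgam, Clec9a and Spi1, 0.423 to 1.31 for Itgax and Flt3, and 1.41 to 3.89 for Siglech and Xcr1. They were 5.17 to 5.76 TPM for Lyz2 and 8.93 to 10.2 for Csf1r. For the MHC class II genes H2-Aa and H2-Ab1 they were 4.36 and 9.92 TPM in GFPlo, 3.73 and 6.98 in GFPmed and 2.22 and 6.32 in GFPhi. The B cell list summed to 20.6 to 28.8 TPM in GFPlo, 21.4 to 31.4 in GFPmed and 11.7 to 31.1 in GFPhi, with 0 of its 4 tested genes called by limma or limma-voom and 0 at an unadjusted p under 0.05. Their part in the rise of Irf8 was not tested. Per exonic length, 80.8% of the receptor genes had a lower mean level than Irf8.

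Irf4 (ENSMUSG00000021356.10, chr13:30749226-30766976, plus strand) was at 18.2, 15.9 and 19.1 TPM in GFPlo, 33.3, 22.7 and 32.6 in GFPmed and 16.2, 18.0 and 22.3 in GFPhi. Every GFPmed sample was above every sample of the other groups, which overlapped; 0.85% of all genes tested have that shape. The log2 fold change was 0.69 (SE 0.18, limma adjusted p = 0.630) from GFPlo to GFPmed, -0.61 (SE 0.18, limma adjusted p = 0.208) from GFPmed to GFPhi and 0.07 (SE 0.18) from GFPlo to GFPhi. The test of unequal steps, GFPhi minus 2 times GFPmed plus GFPlo, gave -1.30 (SE 0.31, unadjusted p = 0.0035, limma adjusted p = 0.607). An exact two-sided permutation test of the same quantity gave p = 0.0119, the smallest it can give, and 2.53% of all genes had an exact p of at most 0.05. Adjusted over all genes the exact p was 1.00. Neither test passed after correction over all genes. With limma-voom on the solved reads, an alternative, Irf4 was called for unequal steps (-1.37, adjusted p = 0.0361), as 0.341% of all genes were, and between GFPmed and GFPhi (-0.65, adjusted p = 0.0181). In the other alternatives limma called neither.

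No member was called between GFPmed and GFPlo, where limma called 0.0749% of all genes, and Irf4 and Batf were the 2 members with the smallest unadjusted limma p (0.00570 and 0.0439). No member was called for unequal steps either, where 0.0195% of all genes were, although Irf4 and Jun had unadjusted limma p of 0.0035 and 0.0120. The exact permutation p of unequal steps was 0.0119 for Irf4 and 0.333 for Jun.

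**Figure D2:**
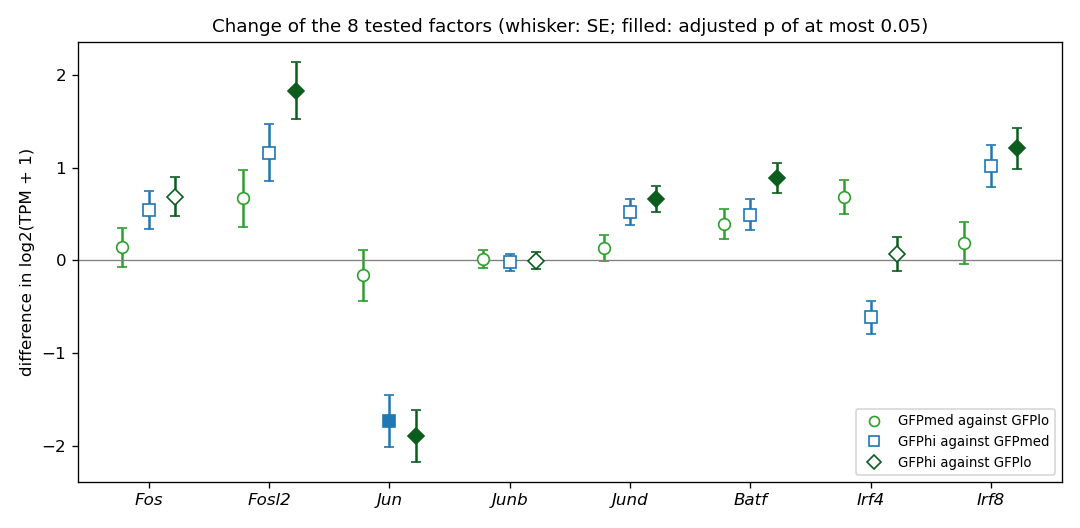
Difference in log2(TPM + 1) with its SE (vertical axis) for the 8 tested members in the 3 comparisons; filled symbols have a limma adjusted p of at most 0.05. Jun is filled in both comparisons with GFPhi, at -1.73 and -1.89, and Irf4 is above 0 from GFPlo to GFPmed and below 0 from GFPmed to GFPhi.

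A second test asked whether each member changed along the sort without a model. It compared the GFPhi and GFPlo means of log2(TPM + 1) over all 1680 assignments of the 9 samples to 3 groups of 3. The exact two-sided permutation p was 0.00119 for Fosl2 and for Batf, the smallest it can give, 0.00476 for Irf8, 0.00595 for Jund and 0.00714 for Jun. It was 0.0274 for Fos and 0.0417 for Fosb, and 0.706, 0.819 and 0.994 for Atf3, Irf4 and Junb. An exact p of at most 0.05 was thus reached by 6 of the 8 tested members and by Fosb, against 15% of all genes tested. Adjusted over all genes, the exact permutation p was 0.0469 for Fosl2 and Batf, and between 0.0930 and 0.239 for Irf8, Jund, Jun and Fos.

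Levels were compared between members only as reads per exonic length (exonic RPKM, scaled to the sample total), because the deposited TPM divides by the span of a transcript with its introns for most genes. The length behind the TPM of Batf is 8.16 times its exonic length and that of Atf3 11.2 times. Sums of TPM over the marker lists carry such lengths too, so they compare samples and not the genes of a list. On the exonic scale the order of mean levels over the 9 samples was Jund (104), Junb (42.2), Batf (15.8), Irf4 (9.57), Fos (5.56), Jun (1.63), Fosl2 (1.24), Irf8 (1.19), Atf3 (0.593) and Fosb (0.0905). The sample ranges of Jund and Junb, of Junb and Batf, and of Fos and Jun did not overlap. Those of Batf and Irf4, of Irf4 and Fos, of Atf3 and Fosb, and of Jun, Fosl2, Irf8 and Atf3 with their neighbours overlapped. The order below Fos differed by group. In GFPlo Jun (2.31) stood above Irf8 (0.703), Fosl2 (0.499) and Atf3 (0.420). In GFPhi Fosl2 (2.31) and Irf8 (2.04) stood above Atf3 (0.571) and Jun (0.510).

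These levels give the makeup of each family. Jund made up 64.0% to 68.2% of the exonic RPKM of the 3 JUN genes in GFPlo, 64.4% to 69.1% in GFPmed and 74.3% to 77.8% in GFPhi. Its level and share are uncertain, because Gm11175 covers 52.6% of its exonic length and reads there cannot be told apart. Jun made up 1.83% ± 0.489 (SD, n = 3) in GFPlo and 0.287% ± 0.0870 in GFPhi, so that the JUN pool was Jund and Junb in every group. Among the FOS genes, Fosl2 made up 10.0% ± 3.21 (SD, n = 3) in GFPlo, 15.6% ± 4.42 in GFPmed and 23.9% ± 7.81 in GFPhi, and Fos the most of the rest.

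The ratio of Fosl2 to Jun, which moved in opposite directions, was 0.315, 0.215 and 0.135 in GFPlo, 0.505, 0.562 and 0.291 in GFPmed and 5.07, 4.56 and 4.13 in GFPhi. Jun was thus above Fosl2 in each GFPlo and GFPmed sample and below it in each GFPhi sample. The divisor in GFPhi is small: of the receptor genes, 59.6% had a lower mean exonic RPKM than Jun in those samples and 94.8% a lower one than Fosl2, and their median was 0.364 beside 0.510 for Jun. Irf4 exceeded Irf8 in every sample, by 12.4, 12.8 and 8.91 times in GFPlo, 18.3, 12.2 and 15.8 times in GFPmed and 3.81, 3.18 and 5.43 times in GFPhi. These ratios were chosen after the values of their members were seen and were given no test.

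**Figure D3:**
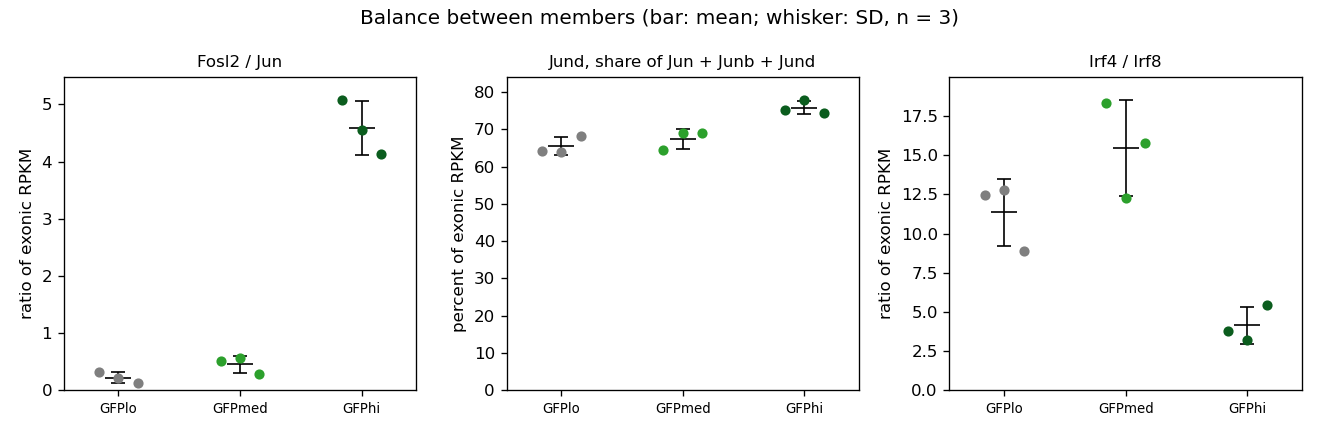
Ratio of Fosl2 to Jun, share of Jund among the 3 JUN genes and ratio of Irf4 to Irf8, all from exonic RPKM (vertical axes, from 0), in the 3 samples of each group with mean and SD. In GFPhi the Fosl2 to Jun ratio is between 4.13 and 5.07 and the Irf4 to Irf8 ratio between 3.18 and 5.43. The share of Jund is uncertain, because Gm11175 covers 52.6% of its exonic length.

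Relatives of the members were taken from lists of 112 related genes, of which 98 were tested. These lists too were chosen with earlier results of these data known. With GFPlo as the base, 13 rose and 7 fell in GFPhi, against 2.38% and 1.51% of all genes tested. Each later count of list genes that rose or fell by limma stands beside the same 2.38% and 1.51%. One of the 13 is Nr4a1, whose order the sort fixed, and without it 12 of 97 rose. The AP-1 relatives Fosl1 and Batf2 were tested and Batf3 and Jdp2 were too low; neither was called. Of 13 ATF and CREB factors and of 10 tested MAF, NFE2 and BACH factors, which bind sites like those of AP-1, 0 were called. Of 6 serum response factors, which drive Fos, and of 4 tested ETS partners of IRF4 and IRF8, 0 were called. At an unadjusted limma p under 0.05 these lists held 0, 0, 2, 3 and 3 genes, taken in the order AP-1, ATF and CREB, MAF, serum response and ETS, and limma-voom on the solved reads called 0, 1, 2, 4 and 2. Over all genes these 2 shares were 13.8% and 7.18%. Their median log2 fold changes, -0.19, -0.17, -0.15, 0.08 and -0.20 in that order, lay beside -0.087 over all genes.

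The other IRF factors were higher as a list. Their median log2 fold change was 0.49 over 7 tested genes, and 2 rose. At an unadjusted limma p under 0.05 the list held 4 genes, Irf1, Irf2, Irf7 and Irf9, and limma-voom called the same 4. Irf1, an activator induced by interferon and by TCR signals, went from 195, 180 and 200 TPM in GFPlo and 250, 228 and 212 in GFPmed to 305, 303 and 317 in GFPhi (log2 fold change 0.68, SE 0.073, limma adjusted p = 0.00237). The 3 groups did not overlap. Irf9, the DNA-binding part of the interferon-induced complex ISGF3, went from means of 309 and 353 TPM in GFPlo and GFPmed to 444 in GFPhi (log2 fold change 0.53, SE 0.11, limma adjusted p = 0.0417). The call of Irf1 held in 18 of 19 alternatives and that of Irf9 in 6.

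Of the 16 tested MAP kinase genes upstream of AP-1, 2 fell and 0 rose. Rasgrp1, the exchange factor that activates Ras below the TCR, fell by 0.48 (SE 0.080, limma adjusted p = 0.0172), and Map2k1, the ERK kinase MEK1, fell by 0.39 (SE 0.073, limma adjusted p = 0.0262). These calls held in 12 and 6 of 19 alternatives. At an unadjusted limma p under 0.05 the list held 5 genes, and limma-voom called 4. Mapk3, the ERK1 gene, named after its value was seen, was at means of 44.9, 49.5 and 73.8 TPM in GFPlo, GFPmed and GFPhi. Its GFPhi and GFPlo samples did not overlap, and its log2 fold change of 0.65 (SE 0.22) did not pass limma (adjusted p = 0.204) but passed limma-voom (0.68, adjusted p = 0.0409).

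The cytokine and surface genes known as NFAT-AP-1 or BATF-IRF targets split. Of 18, 17 were in the table, 11 were tested, 3 rose and 2 fell. Il21, a cytokine gene bound by BATF and IRF4, rose from 10.3 ± 2.66 TPM (SD, n = 3) in GFPlo through 18.5 ± 2.38 in GFPmed to 24.6 ± 1.03 in GFPhi (log2 fold change 1.21, SE 0.19, limma adjusted p = 0.0122). Ctla4, an inhibitory receptor, rose by 2.72 (SE 0.20, limma adjusted p = 0.000462) and Icos, a costimulatory receptor, by 0.45 (SE 0.073, limma adjusted p = 0.0149). Csf2, the GM-CSF gene, fell by 2.50 (SE 0.38, limma adjusted p = 0.0109), from 7.65, 16.1 and 11.4 TPM in GFPlo and 4.98, 9.94 and 6.69 in GFPmed to 1.78, 0.454 and 1.49 in GFPhi. Cd69, which was also a marker of the sort, fell by 0.79 (SE 0.13, limma adjusted p = 0.0142) while every sample stayed at or above 184 TPM. Of 19 alternatives the call held in 19 for Ctla4, 18 for Csf2, 14 for Il21, 13 for Cd69 and 12 for Icos. At an unadjusted limma p under 0.05 the list held 7 genes, and limma-voom called 6, against 13.8% and 7.18% of all genes. Fasl and Tnf were named after their values were seen. Fasl rose by 1.31 (SE 0.29, limma adjusted p = 0.0534) and was called by limma-voom. Tnf fell by 0.31 (SE 0.10, limma adjusted p = 0.182) and was not.

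Immediate early genes, which like Fos and Jun respond within minutes of stimulation, also went both ways. Of 18 tested besides Nr4a1, whose rise the sort fixed, 7 were higher and 2 lower. The risers with the largest changes were Nr4a3 (1.97), the ERK phosphatase gene Dusp2 (1.40), Nr4a2 (1.10) and Egr3 (0.86) on the log2 scale. Egr2 fell by 0.90 (SE 0.085, limma adjusted p = 0.00129). Egr1, named after its value was seen because it is the other of the 2 that fell, fell by 0.76. The calls of Nr4a3, Dusp2 and Egr2 held in 19 of 19 alternatives, that of Nr4a2 in 5 and that of Egr3 in 3. Without Nr4a1 their median was 0.26, beside -0.087 over all genes. With Nr4a1 counted, 15 of 19 had an unadjusted limma p under 0.05, and limma-voom called 11. Of 10 tested heat shock genes, which encode protein chaperones, 0 rose and Hsph1 fell by 0.43 (SE 0.089, limma adjusted p = 0.0396), a call that held in 5 of 19 alternatives, with a list median of -0.24. At an unadjusted limma p under 0.05 this list held 5 genes, and limma-voom called 4.

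**Figure D4:**
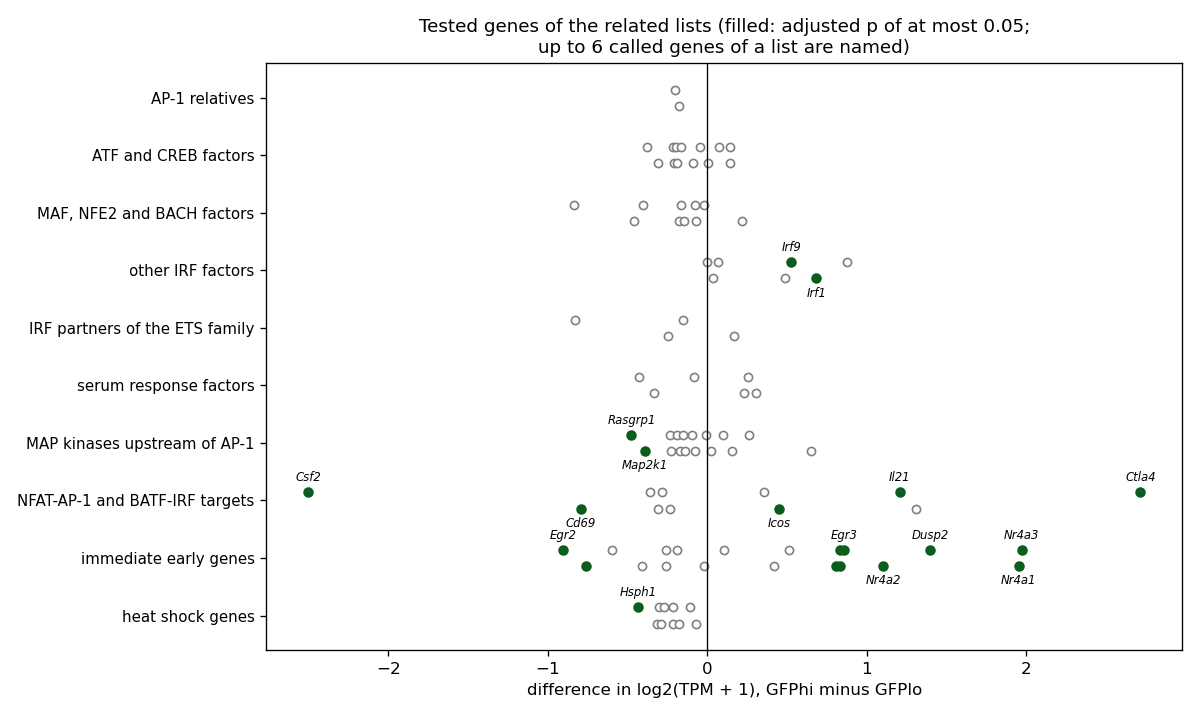
Difference in log2(TPM + 1) between GFPhi and GFPlo (horizontal axis) for each tested gene of the related lists; filled points have a limma adjusted p of at most 0.05, and position within a row has no meaning. Filled points appear in 5 of the 10 lists and on both sides of 0 among the targets and the immediate early genes, where Nr4a1 is included although the sort fixed its order.

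Markers of regulatory T cells moved with the members that rose. Although the sort took CD25- cells, 5 of 5 such markers rose between GFPlo and GFPhi: Il2rb (by 3.65 on the log2 scale), Ctla4 (by 2.72), Ikzf2, Il2ra (by 2.68) and Foxp3 (by 1.10), with limma adjusted p of at most 0.00987. Their summed level was 15.5 to 16.1 TPM in GFPlo, 22.2 to 29.0 in GFPmed and 127 to 151 in GFPhi, and none was at 0. Foxp3 itself was at a mean of 6.75 TPM in GFPlo, 6.33 in GFPmed and 15.7 in GFPhi. The part of such cells in the levels of Batf, Fosl2, Irf8 and Jund was not tested. Of the thymic epithelium list, 3 of 5 genes in the table were tested and Epcam rose by 1.38 (limma adjusted p = 0.0120).

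Genes whose levels followed a member most closely over the 9 samples were listed by Pearson r of log2(TPM + 1) among 12123 tested genes with a mean TPM of at least 10. For Fosl2 these were Ablim1, Atad2 and Mxd4 (r = 0.979, 0.979 and 0.979), and for Batf E130208F15Rik, Commd8 and Crip1 (r = 0.985, 0.983 and 0.980). For Jun they were Tlr12, Gm26566 and Ints5 (r = 0.986 for each). Jund was followed by Irf2 (0.981), the overlapping Gm11175 (0.976) and Tbc1d10a (0.964), and Irf8 by Slc50a1, Gm28592 and A230005M16Rik (0.982, 0.981 and 0.981). The values for Irf4, with its peak in GFPmed, were 0.942, 0.929 and 0.913 for Slc16a5, Alyref2 and Palm3. Fos was followed by Gm48768, Wdyhv1 and Trbd1 (0.963, 0.931 and 0.925), Junb by Gm19169, Gm23413 and Zbtb18 (0.887, 0.884 and 0.875) and Fosb by Traj23, Gm44238 and Daxx (0.947, 0.946 and 0.926). For Atf3 they were Olfr1042, Ighv1-57 and Olfr898 (0.922, 0.916 and 0.906), receptor and immunoglobulin genes not known from T cells. All points share their libraries, and with so many genes searched over 9 samples high values arise readily, so these are descriptions only.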

How the data were processed

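RNA of sorted cells was amplified with SMART-seq v4 and made into NexteraXT libraries, which do not mark strand. Per the labels and methods, the authors trimmed reads, aligned them with STAR 2.7.11b to GRCm38 (mm10) with GENCODE vM25 genes, dropped identical duplicates, took gene counts from STAR and deposited TPM. A group mean of the normalized signal (counts over size factors) was deposited as well. With DESeq2 1.34.0 the authors computed, for every pair of groups, a log2 fold change and a p-value, and the score columns deposited by the authors mark their calls; none of these 3 was used.

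Whole reads were solved from the TPM and the group signal for 41578 genes (400 were not solved, and 100% of values were whole within 0.01). Depth was 7465552 to 14943774 reads per sample. Amplified reads without molecular identifiers are not independent molecules. Exonic lengths and positions came from GENCODE vM21 of the same build. The deposited TPM equals reads over the mean transcript span, introns included, for 97.0% of 20121 protein-coding genes. Whether counting used strand is not given in the sources used here.

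Groups came from the labels, and 0 sample columns were left unused. limma 3.58.1 in R 4.3.3 was fitted to log2(TPM + 1) over all 9 samples with an eBayes trend, for genes that reached 1 TPM in 3 or more samples, and was tested on simulated data. Single values used exact permutation tests. The members and lists were chosen with earlier results of these data known. Named genes were the 10 members, Nr4a1, up to 6 called genes of each related list with the largest changes, and the 3 non-members most like each member. Alternatives were other pseudocounts (0.1), filters, scalings, models, left-out samples and limma-voom on the solved reads.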

Additional observations from a re-analysis of the deposited data

How the results depend on the processing

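Between GFPhi and GFPlo 4 members were higher and 1 lower. The number higher was 1 with median-of-ratios scaling, 1 with quantile normalization, 0 when only these 2 groups were fitted, and 0 to 2 when a single sample was left out. The number lower was 0 with quantile normalization and 0 to 1 with a sample left out. With the fold limit, 2 were higher and 1 lower. There the number higher was 1 with a TPM of at least 5, 1 with median-of-ratios, 1 with quantile normalization, 0 with only the 2 groups, and 0 to 1 with a sample left out. The number lower was 0 with quantile normalization and 0 to 1 with a sample left out.

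Between GFPhi and GFPmed 0 members were higher and 1 lower. limma-voom on solved reads gave 4 higher and 2 lower (with the fold limit 2 higher), and 1 lower for unequal steps, Irf4 (adjusted p = 0.0361). The number lower was 0 with median-of-ratios scaling, 0 with quantile normalization, 0 with only the 2 groups, and 0 to 1 with a sample left out, with or without the fold limit. Between GFPmed and GFPlo 0 members were called in any alternative.

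Over the related lists, 13 genes were higher and 7 lower. These were 8 and 3 with median-of-ratios scaling, 7 and 4 with only the 2 groups, 21 and 17 with limma-voom, and 7 to 13 and 3 to 8 with a sample left out. Without the eBayes trend 4 were lower. Leaving out replicate 1 of every group, chosen after seeing the data because GFPlo and GFPhi replicate 1 had the largest shares of reads on olfactory and vomeronasal receptor genes, called 0 members in any comparison and 4 higher and 2 lower list genes.

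Same-numbered samples of different groups deviated from their group means with a mean correlation of 0.0609 (0.0122 to 0.225), and 1 of 9 pairs was above 0.1. For differently numbered samples the mean was -0.0305 (-0.185 to 0.148), and 1 of 18 pairs was above 0.1. These values cannot settle whether same-numbered samples share a mouse, and the main fit took no pairing. With the replicate number as a block, 2 members were higher (Batf and Fosl2), 1 of them with the fold limit, and 1 was lower between GFPhi and GFPlo, and 0 were lower between GFPhi and GFPmed. With the block the list counts were 12 higher and 5 lower. The exact trend test within replicate numbers gave p = 0.0741 for Fos and 0.0556 for Fosb, which both lost their place under 0.05, as they did in 3 and 4 of 9 fits without a sample.

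No called value changed sign in any alternative, and 21 uncalled values of 4 members did. The cause of these changes was not tested, except that leaving out samples also removes degrees of freedom. Depth limits Fosb, Atf3 and Jun most, and Fosb and Atf3 did not reach the TPM limit of the main limma test.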
